A study of Bos taurus with 6 samples.

Results

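Nuclear-encoded subunits of the respiratory chain and of ATP synthase were examined in single bovine morulae. The members were all gene symbols with the family names of complex I (NDUFA, NDUFB, NDUFC, NDUFS and NDUFV), complex III (UQCR), cytochrome c oxidase (COX4I, COX5, COX6, COX7 and COX8) and ATP synthase (ATP5), without the NDUFAF assembly factors. This gave 79 symbols of 13683 in the tables. For 73 of them every library had a row of its own, with no merged locus and status OK, as for 13185 symbols in all. Of the 7319 genes among these that reached 1 FPKM or more in at least 3 libraries, 68 were members. By complex, the 73 were 32 genes of complex I, 8 of complex III, 16 of complex IV, 14 of ATP synthase (complex V) and 3 set apart.

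The embryos came from fertilization in vitro and were cultured in mSOF medium with bovine serum albumin under 5% oxygen. MAT2A-inhibited morulae (3 embryos) received 20 µM FIDAS-5, an inhibitor of the enzyme that makes S-adenosylmethionine. Control morulae (3 embryos) received its solvent, 0.1% DMSO. Both groups were treated at 72 h after insemination (day 3), with 8 to 16 cells, and sampled at 144 h (day 6). Each library was made from polyA RNA of 1 whole embryo with a full-length kit, so fewer cells and less RNA per cell cannot be told apart. The labels name no solvent for the MAT2A-inhibited embryos. Nor do they state separate cultures, so that a p-value here covers embryo-to-embryo spread, which may be technical.

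Of 8 morula markers, POU5F1 and DPPA3 were at 254.8 FPKM or more and SOX2 at 27.6 FPKM or more in every library. NANOG was low, at 1.16 to 1.88 FPKM in MAT2A-inhibited morulae and 2.54 to 20.3 FPKM in controls, as was CDX2, at 0.188 to 2.56 FPKM in MAT2A-inhibited morulae and 0.276 to 2.77 FPKM in controls. Depth recovered from the deposited values was 54000000, 46400000 and 57700000 fragments in MAT2A-inhibited morulae 1 to 3 and 56500000, 53400000 and 59900000 in controls 1 to 3. The Y-linked EIF1AY had 38.2 and 107 FPKM in MAT2A-inhibited morulae 2 and 3 and was listed at 0 in the other 4 libraries. Control 2 stood apart in lineage genes: KRT8 was at 4.49 FPKM and KRT18 at 8.67 FPKM there, against at least 22.6 FPKM in the other 5 libraries. Control 3 stood at the other end, with KRT8 at 400 FPKM, KRT18 at 363 FPKM and GATA3 at 83.4 FPKM. The next highest library, MAT2A-inhibited morula 3, had 230, 117 and 33.9 FPKM. Cumulus genes were mixed in control 2. DCN reached 11.0 FPKM there and at most 0.730 FPKM elsewhere, and LUM was also highest there, at 4.81 FPKM. COL1A2 was lowest in control 2, at 0.231 FPKM, and SERPINE2 was higher in control 1 (122 FPKM) than in control 2 (92.9 FPKM). The 9 cumulus genes summed to 43.5 to 83.5 FPKM in MAT2A-inhibited morulae and to 129, 111 and 61.6 FPKM in controls 1 to 3. Most of this was SERPINE2, and PTX3 was listed at 0 throughout. Levels are in FPKM, that is fragments normalised to gene length and to library size. A log2 fold change is the mean log2(FPKM + 1) of MAT2A-inhibited morulae minus that of controls, and the added 1 shrinks it for low genes.

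Oxidative phosphorylation moves electrons from NADH and succinate to oxygen and uses the proton gradient so made for ATP synthesis. Complex I oxidises NADH, complex III passes electrons from ubiquinol to cytochrome c, complex IV reduces oxygen, and complex V makes ATP. The subunits of complexes I, III, IV and V are shared between nuclear and mitochondrial genes. Most nuclear subunits of complexes I, III and IV are small accessory proteins. Cattle embryos draw much of their ATP from this pathway before compaction, and the mitochondria of the embryo come from the oocyte.

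Transcripts of the subunits were among the most abundant of the embryo, at close levels in the treated and control groups. Shares were taken of the FPKM summed over the 13185 symbols kept, without merged loci or loci without a gene name. Together the 70 subunit genes of the 4 complexes held 12.3%, 12.7% and 13.4% of that sum in MAT2A-inhibited morulae 1 to 3. In controls 1 to 3 they held 11.8%, 10.3% and 12.7%. The groups overlapped. Of the 68 members tested, 21 were within the 100 genes with the highest mean FPKM and 54 within the highest 500. Their median rank was 170.5 of 7319.

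By complex, the summed FPKM was of similar size in I, IV and V and lower in III, the smallest in subunit number. Complex I summed to 32829, 34082 and 34379 FPKM in MAT2A-inhibited morulae, against 30996, 28426 and 36717 FPKM in controls. Complex III summed to 11513, 13474 and 14514 FPKM in MAT2A-inhibited morulae, against 12837, 8477 and 12535 FPKM in controls. In both complexes the lowest library was control 2, and in complex I the highest was control 3.

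The cytochrome c oxidase genes summed to 27917, 29827 and 30994 FPKM in MAT2A-inhibited morulae, against 27842, 23906 and 28706 FPKM in controls. ATP synthase genes summed to 31835, 36350.1 and 38558 FPKM in MAT2A-inhibited morulae, against 29329, 26834 and 35576 FPKM in controls. The groups overlapped in each of the 4 sums, and control 2 was the lowest library in each. As mean ± SD (n = 3 each), the sums were 33763 ± 823 in MAT2A-inhibited and 32047 ± 4244 FPKM in control morulae for complex I, and 13167 ± 1524 in MAT2A-inhibited and 11283 ± 2435 FPKM in control morulae for complex III. For complex IV they were 29579.5 ± 1553 in MAT2A-inhibited and 26818 ± 2559 FPKM in control morulae, and for complex V 35581 ± 3427 in MAT2A-inhibited and 30580.0 ± 4503 FPKM in control morulae. The log2 ratios of the means were 0.075, 0.22, 0.14 and 0.22 for complexes I, III, IV and V. In the same order they were -0.0040, 0.054, 0.065 and 0.13 without control 2, and 0.18, 0.31, 0.19 and 0.34 without control 3. Without control 1 complex III was at 0.33. They were 0.035, 0.029, 0.058 and 0.058 without MAT2A-inhibited morulae 2 and 3, the embryos with Y-linked transcripts. The remaining ratios with 1 library left out ran from 0.052 to 0.31. A sum over chosen members was not tested.

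**Figure D1:**
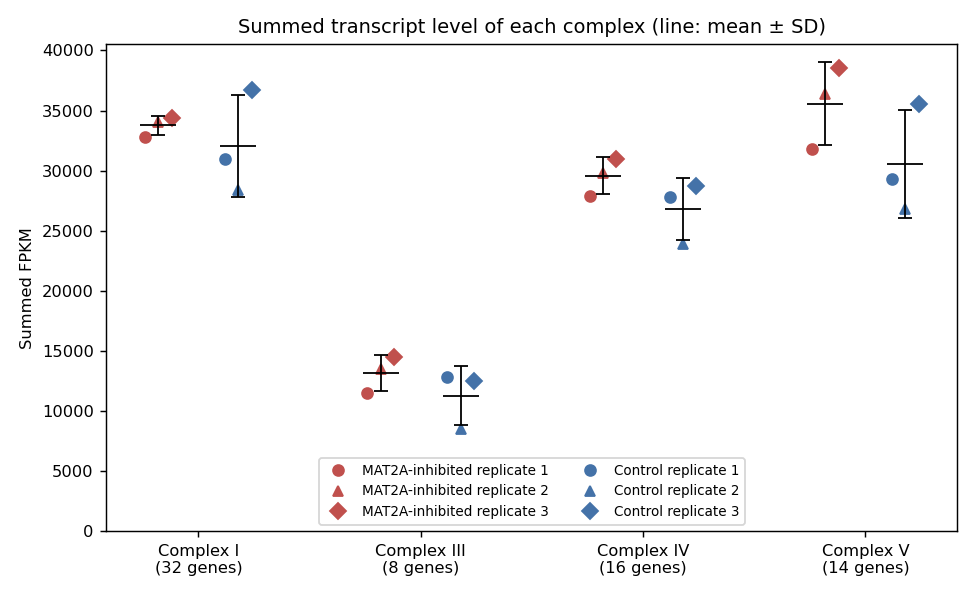
Summed FPKM of the genes of each complex (y axis) in MAT2A-inhibited (red, left of each pair) and control morulae (blue, right), with 1 symbol per embryo and a black line for the mean ± SD. The groups overlap in every complex, and control replicate 2 is the lowest library in each, down to 8477 FPKM in complex III.

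The balance between the complexes differed little between embryos. Complex I held 31.5%, 30.0% and 29.0% of the 4 sums in MAT2A-inhibited morulae, against 30.7%, 32.4% and 32.3% in controls. Complex V held 30.6%, 32.0% and 32.6% in MAT2A-inhibited morulae, against 29.0%, 30.6% and 31.3% in controls. The share of complex III ran from 11.1% to 12.3% in MAT2A-inhibited morulae and from 9.67% to 12.7% in controls, and that of complex IV from 26.2% to 26.8% in MAT2A-inhibited morulae and from 25.3% to 27.6% in controls. All 4 shares overlapped between the groups.

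Per gene, levels ranged far more widely within a complex than between embryos. The median subunit of complex I had 654, 677 and 765 FPKM in MAT2A-inhibited morulae and at 704, 524 and 737 FPKM in controls. That of complex IV, over the 11 genes with a mean of at least 1 FPKM, had 2461, 2307 and 2174 FPKM in MAT2A-inhibited morulae and at 2297, 1905 and 1943 FPKM in controls. Median levels were intermediate in complex III (1239 to 1632 FPKM in MAT2A-inhibited and 745 to 1270.1 FPKM in control morulae) and close to complex IV in complex V (2128 to 2317 FPKM in MAT2A-inhibited and 1643 to 2451 FPKM in control morulae). The files give no transcript lengths, and short unannotated loci reach 24949300 FPKM. The part of short length in the high FPKM of small subunits was not tested.

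**Figure D2:**
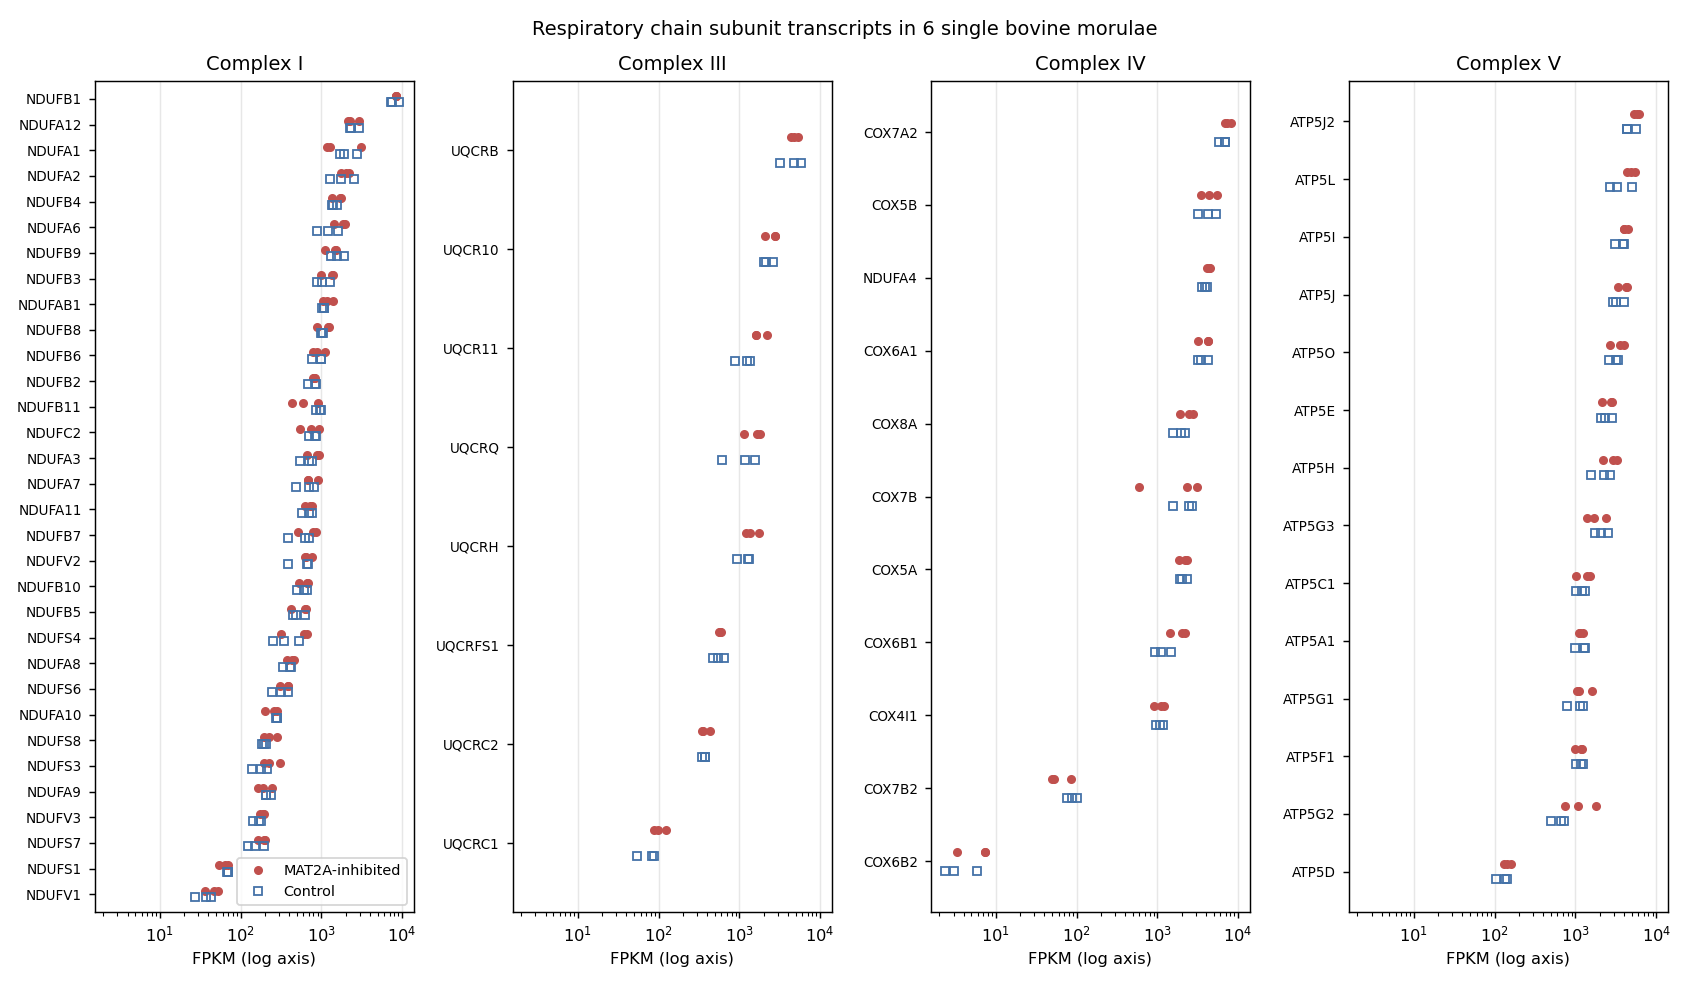
FPKM on a log axis (x) of each tested subunit gene (y, ordered by mean level within its complex), with filled red circles for the 3 MAT2A-inhibited and open blue squares for the 3 control morulae. The genes of complex I run from NDUFV1 at 27.7 to 53.0 FPKM to NDUFB1 at 7247 to 9276 FPKM, and the embryos of both groups lie close together for most genes.

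In complex I the lowest genes coded for the NADH-oxidising end. NDUFV1, which binds NADH and the flavin, had 47.1, 36.4 and 53.0 FPKM in MAT2A-inhibited morulae and 37.3, 27.7 and 43.2 FPKM in controls. NDUFS1, an iron-sulfur subunit of the same module, had 53.9, 63.9 and 69.5 FPKM in MAT2A-inhibited morulae and 67.4, 69.5 and 69.7 FPKM in controls. The remaining tested redox subunits NDUFS7, NDUFS8 and NDUFV2, and the core subunit NDUFS3, ran from 123 to 771 FPKM over all libraries.

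As a group, the 6 tested core subunits had a median of 194, 194 and 241 FPKM in MAT2A-inhibited morulae and 168, 152 and 179.9 FPKM in controls. The 26 accessory subunits had a median of 793, 814 and 886 FPKM in MAT2A-inhibited morulae and 812, 731 and 840.4 FPKM in controls. The core medians did not overlap between groups and the accessory medians did. This split was chosen after the values were seen and was not tested, and none of the 6 core genes had non-overlapping groups on its own.

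The most abundant complex I transcript was NDUFB1, a small subunit of the membrane arm (bosTau8 chromosome 21, 57388600 to 57395511). It had 8523, 8509.9 and 8417 FPKM in MAT2A-inhibited morulae and 7247, 7417 and 9276 FPKM in controls, and its mean ranked 4 of 7319. NDUFA12, of the peripheral arm, had 2241, 2948 and 2168 FPKM in MAT2A-inhibited morulae and 2363, 2294 and 2934 FPKM in controls. NDUFA2, an accessory subunit of the NADH-oxidising module, had 1750.4, 2210.2 and 1997 FPKM in MAT2A-inhibited morulae and 1745, 1285 and 2516 FPKM in controls. For NDUFB1 and NDUFA2 all 3 treated values lay within the range of the controls, while NDUFA12 reached above and below it.

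No subunit of complex I passed limma, a linear model test across all 7319 genes, after Benjamini-Hochberg adjustment (lowest adjusted p = 0.750). Its groups overlapped for all 32 genes. NDUFA6, which holds the mitochondrial acyl carrier protein on the complex, had 1424, 1983 and 1851 FPKM in MAT2A-inhibited morulae and 1222, 889 and 1617 FPKM in controls (log2 fold change 0.52 ± 0.25 SE, limma adjusted p = 0.750). NDUFS3 had 194, 225 and 305 FPKM in MAT2A-inhibited morulae and 141, 181 and 214 FPKM in controls (0.43 ± 0.25, adjusted p = 0.780). NDUFA3, of the membrane arm, had 664, 879.6 and 931 FPKM in MAT2A-inhibited morulae and 704, 546 and 766 FPKM in controls (0.30 ± 0.21, adjusted p = 0.802). In each of them the lowest treated value lay inside the control range. NDUFAB1, the acyl carrier protein itself, had 1173, 1382 and 1044 FPKM in MAT2A-inhibited morulae and at 1078, 1025 and 1085 FPKM in controls.

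The other complex I genes lay between these extremes. NDUFS4, which helps to fix the NADH-oxidising module to the complex, had 313, 607 and 673 FPKM in MAT2A-inhibited morulae and 341, 255 and 534 FPKM in controls. NDUFB9, of the membrane arm, had 1127, 1506 and 1466 FPKM in MAT2A-inhibited morulae and 1555, 1927 and 1302 FPKM in controls, and control 2 was its highest library. NDUFA7, NDUFA8, NDUFA9, NDUFA10, NDUFA11, NDUFS6 and NDUFV3 ran from 166 to 912 FPKM in MAT2A-inhibited and from 142 to 806 FPKM in control morulae. NDUFB2 to NDUFB8, NDUFB10 and NDUFC2 ran from 426 to 1749 FPKM in MAT2A-inhibited and from 384 to 1573 FPKM in control morulae. The groups overlapped for all of them.

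Complex III genes all had a log2 fold change above 0, from 0.032 for UQCRC2 to 0.65 for UQCR11, and none passed. UQCR11, a small membrane subunit (chromosome 7, 45592773 to 45595693), had 1587, 1599 and 2229.8 FPKM in MAT2A-inhibited morulae and 1343, 885 and 1234 FPKM in controls. The 3 treated values lay above the 3 controls (0.65 ± 0.22, unadjusted p = 0.0199, limma adjusted p = 0.703). UQCRQ, another small subunit, had 1128, 1665 and 1784 FPKM in MAT2A-inhibited morulae and 1173, 605 and 1575 FPKM in controls (0.53 ± 0.36, adjusted p = 0.800). Its groups overlapped, and control 2 was far below the other 5 libraries.

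UQCRH, the acidic hinge protein beside cytochrome c1, had 1351, 1741 and 1211 FPKM in MAT2A-inhibited morulae and 1271, 922 and 1306 FPKM in controls (0.30 ± 0.21, adjusted p = 0.802). UQCRC1, a core protein, had 86.9, 98.6 and 124 FPKM in MAT2A-inhibited morulae and 88.3, 54.8 and 82.1 FPKM in controls (0.47 ± 0.26, adjusted p = 0.774). It was the lowest gene of the complex, and its partner UQCRC2 was at 345 to 431 FPKM in MAT2A-inhibited and 347 to 378 FPKM in control morulae. UQCRFS1, the Rieske iron-sulfur protein, had 595, 562 and 585 FPKM in MAT2A-inhibited morulae and 643, 478 and 548 FPKM in controls. The ubiquinone-binding UQCRB was the highest, at 4344, 4714 and 5349 FPKM in MAT2A-inhibited morulae and 5785, 3144 and 4791 FPKM in controls. UQCR10 had 2071, 2749 and 2800.1 FPKM in MAT2A-inhibited morulae and 2155, 2040.1 and 2626 FPKM in controls. Control 2 was the lowest library for UQCRB, UQCR10, UQCRH and UQCRFS1.

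In complex IV the widely expressed isoforms were the abundant ones. COX7A2 was the highest, at 6892, 7286 and 8148 FPKM in MAT2A-inhibited morulae and 6929, 5734 and 6801 FPKM in controls (0.20 ± 0.14, limma adjusted p = 0.802). COX5B had 3430.1, 4402 and 5426 FPKM in MAT2A-inhibited morulae and 4289, 3225 and 5345 FPKM in controls, and COX6A1 ran from 3208 to 4238 FPKM in MAT2A-inhibited and from 3227 to 4208 FPKM in control morulae. COX4I1 and COX5A, early assembly partners of the catalytic core, had log2 fold changes of 0.025 and 0.021. The groups overlapped in all of these.

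NDUFA4 carries a complex I name and is now placed in complex IV, and it was counted there (chromosome 4, 18973419 to 18980828). It had 4532, 4152 and 4303 FPKM in MAT2A-inhibited morulae and 3895, 3575 and 4116 FPKM in controls. All treated values were above all controls, by a small margin (0.17 ± 0.13, limma adjusted p = 0.814). COX8A had 2461, 1889 and 2756 FPKM in MAT2A-inhibited morulae and 2223, 1571 and 1943 FPKM in controls (0.31 ± 0.20, adjusted p = 0.800). Part of it, 142.6 to 209.9 FPKM per library, came from a second locus of 475 bases on chromosome 20 (24442413 to 24442887) that carries the same symbol.

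COX6B1, which joins the monomers of the enzyme, had 1426, 1989.8 and 2173 FPKM in MAT2A-inhibited morulae and 1118, 944 and 1467 FPKM in controls. The lowest treated value lay just under the highest control (0.66 ± 0.23, unadjusted p = 0.0216, limma adjusted p = 0.708). Without both embryos with Y-linked transcripts the log2 fold change was 0.30. Its row in the files is a stretch of 481 bases on chromosome 5 (94363786 to 94364266), whereas the RefSeq gene table, on the assembly ARS-UCD2.0, has the gene on another chromosome. The value may therefore belong to a near-identical copy and is uncertain. It was the only member of 79 whose main locus differed in chromosome from that table, in which 17 members have newer symbols.

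Tissue isoforms of cytochrome c oxidase were at or near 0. COX4I2, the lung isoform of subunit 4, COX8B, a muscle isoform, and NDUFA4L2, which hypoxia raises in other cells, were listed at 0 in every library. COX6A2, of heart and skeletal muscle, had 0.483, 0 and 0.571 FPKM in MAT2A-inhibited morulae and 0, 0.966 and 1.94 FPKM in controls. COX7A1, also of muscle, had 0, 0 and 4.84 FPKM in MAT2A-inhibited morulae and 0.536, 0 and 0 FPKM in controls. These 5 genes were below the level required for the test, and a 0 in these tables can be a failed estimate. COX6B2, a testis isoform, had 7.44, 3.29 and 7.27 FPKM in MAT2A-inhibited morulae and 5.86, 2.36 and 3.07 FPKM in controls, or at most 0.522% of the COX6B pair.

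COX7B2 was the one low isoform well above these levels. It had 85.6, 49.4 and 52.0 FPKM in MAT2A-inhibited morulae and 87.5, 101 and 75.7 FPKM in controls (-0.53 ± 0.27, limma adjusted p = 0.766). The groups overlapped through MAT2A-inhibited morula 1. Its share of the COX7B pair was 2.67%, 2.07% and 8.11% in MAT2A-inhibited morulae, against 3.46%, 3.64% and 4.64% in controls. The 8.11% belongs to the embryo in which the X-linked COX7B was lowest.

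ATP synthase genes were mostly high and even between groups. In the catalytic F1 head, ATP5A1 (alpha) had 1113, 1253 and 1134 FPKM in MAT2A-inhibited morulae and 1301, 990.3 and 1296 FPKM in controls. ATP5C1 (gamma), the rotating stalk, ran from 1022 to 1496 FPKM in MAT2A-inhibited and from 1008 to 1329 FPKM in control morulae. ATP5D (delta) was the lowest gene of the complex, at 132, 142 and 159.6 FPKM in MAT2A-inhibited morulae and 142, 105 and 136 FPKM in controls. ATP5E (epsilon) was at 2122 to 2851 FPKM in MAT2A-inhibited and 2061 to 2849 FPKM in control morulae. The groups overlapped in all 4, and the log2 fold change farthest from 0 was that of ATP5D, 0.18 ± 0.20.

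The stalk and membrane parts held the highest levels. ATP5J2 (subunit f) had 5246, 5836 and 6066 FPKM in MAT2A-inhibited morulae and 4381, 4405 and 5586 FPKM in controls (0.26 ± 0.15, limma adjusted p = 0.780). ATP5L (subunit g) had 4406, 4928 and 5503 FPKM in MAT2A-inhibited morulae and 2707, 3263 and 5082 FPKM in controls (0.47 ± 0.24, adjusted p = 0.760). In both, controls 1 and 2 were below every treated embryo and control 3 was within their range.

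ATP5I (subunit e, chromosome 6, 108851270 to 108852810) had 3992, 4448 and 4048 FPKM in MAT2A-inhibited morulae and 3947, 3080.2 and 3923 FPKM in controls. The groups did not overlap, with a gap that was narrow beside the spread of the controls (0.20 ± 0.15, adjusted p = 0.812). ATP5H (subunit d of the side stalk) had 2219.9, 2925 and 3249 FPKM in MAT2A-inhibited morulae and 2228, 1557 and 2683 FPKM in controls (0.39 ± 0.24, adjusted p = 0.782). ATP5J, coupling factor 6, had 3365, 4245 and 4371 FPKM in MAT2A-inhibited morulae and 3186, 2948 and 4041 FPKM in controls. ATP5F1 (subunit b) was at 977 to 1202 FPKM in MAT2A-inhibited and 1029.9 to 1259 FPKM in control morulae. The groups overlapped for ATP5J, ATP5F1 and ATP5H, and for ATP5O, the oligomycin sensitivity subunit, at 2676 to 3953 FPKM in MAT2A-inhibited and 2590.0 to 3387 FPKM in control morulae.

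The genes of subunit c, which forms the membrane rotor, differed in balance. ATP5G1, ATP5G2 and ATP5G3 code for the same mature protein behind different import sequences. ATP5G2 (chromosome 5, 26535450 to 26543703) had 1075, 738 and 1783 FPKM in MAT2A-inhibited morulae and 659.7, 499.8 and 717 FPKM in controls. Its locus differed in each of the 6 libraries, so the position given holds for a single library. All treated values were above the controls, narrowly in embryo 2, and the log2 fold change was 0.86 ± 0.32, the largest of all members (unadjusted p = 0.0295, limma adjusted p = 0.746). Without MAT2A-inhibited morula 3 it was 0.53, below that of COX6B1 at 0.54.

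ATP5G3 had 2391, 1387 and 1705 FPKM in MAT2A-inhibited morulae and 2088, 1729 and 2559 FPKM in controls (-0.24 ± 0.24, adjusted p = 0.844). ATP5G1 had 1099, 1038 and 1623 FPKM in MAT2A-inhibited morulae and 1126, 781 and 1237 FPKM in controls (0.26 ± 0.25, adjusted p = 0.838). Both overlapped between groups. The sum of the 3 genes was 4280 ± 1004 FPKM in MAT2A-inhibited and 3799 ± 754 FPKM in control morulae (SD, n = 3 each).

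As a share of that sum, ATP5G2 held 23.5%, 23.3% and 34.9% in MAT2A-inhibited morulae, against 17.0%, 16.6% and 15.9% in controls. ATP5G3 held 52.4%, 43.8% and 33.4% in MAT2A-inhibited morulae, against 53.9%, 57.4% and 56.7% in controls. Neither share overlapped between the groups, while that of ATP5G1 did, at 24.1% to 32.8% in MAT2A-inhibited morulae and 25.9% to 29.1% in controls. The mean ATP5G2 share was 10.7 percentage points higher in MAT2A-inhibited morulae, and 6.93 to 12.7 points with any 1 library left out. A share does not depend on scaling between libraries by a single factor. The loci of ATP5G1 and ATP5G2 differed in each of the 6 libraries, while ATP5G3 had 1 locus throughout. The part of these differing loci in the FPKM and the shares was not tested. It was given as a description, because ATP5G2 was already known to lead the members.

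**Figure D3:**
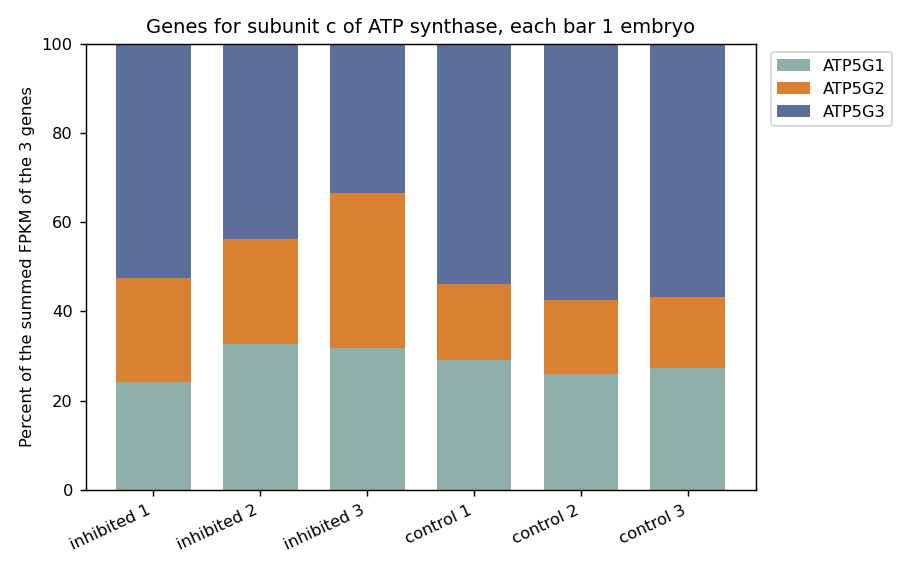
Percent of the summed FPKM of ATP5G1, ATP5G2 and ATP5G3 (y axis) in each embryo, MAT2A-inhibited left and control right. The ATP5G2 segment is 23.3% to 34.9% in the MAT2A-inhibited embryos and 15.9% to 17.0% in the controls.

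Over all members, no gene passed limma after adjustment over the 7319 genes tested (lowest adjusted p = 0.703, for UQCR11), where 3 genes (0.041%) passed in all, 0.0273% higher and 0.0137% lower in MAT2A-inhibited morulae. An unadjusted p below 0.05 was found for 3 of 68 members (4.41%), UQCR11, COX6B1 and ATP5G2, and for 6.64% of all genes tested. The groups did not overlap for 5 members (7.35%), 4 higher and 1 lower in MAT2A-inhibited morulae. Among all genes tested 13.4% did not overlap, 8.27% higher and 5.18% lower, so the members' share was not above the background.

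Most differences were above 0. A log2 fold change above 0 was found for 54 of 68 members (79.4%), against 54.2% of all genes tested, with a median of 0.15 for the members and 0.045 for all genes. By complex, the counts were 24 of 32 in complex I, 8 of 8 in complex III, 9 of 11 in complex IV and 11 of 14 in complex V. The medians were 0.13, 0.23, 0.088 and 0.19. With median-of-ratios scaling 47 of 68 members were above 0.

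Control 2 bore on these counts. That embryo was the lowest library for 42 of 68 members (61.8%), and for 26.3% of all genes tested. The median deviation of a member from its 6-library mean was -0.051, 0.14 and 0.21 on the log2 scale in MAT2A-inhibited morulae 1 to 3, and -0.0064, -0.26 and 0.092 in controls 1 to 3. Over all genes tested it ran from -0.068 in control 2 to 0.039. Complex III showed the widest gap, with -0.51 in control 2. Without control 2, 42 of 68 members were above 0 and their median was 0.050. Without both embryos with Y-linked transcripts, the count was 37 and the median 0.046, and with any other library left out the median was 0.099 to 0.23. MAT2A-inhibited morula 3 was the highest library for 35 members. The keratins and DCN given above also set control 2 apart. The keratins were highest in control 3, and the sum of the cumulus genes was highest in control 1. The part of these genes in this result was not tested.

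**Figure D4:**
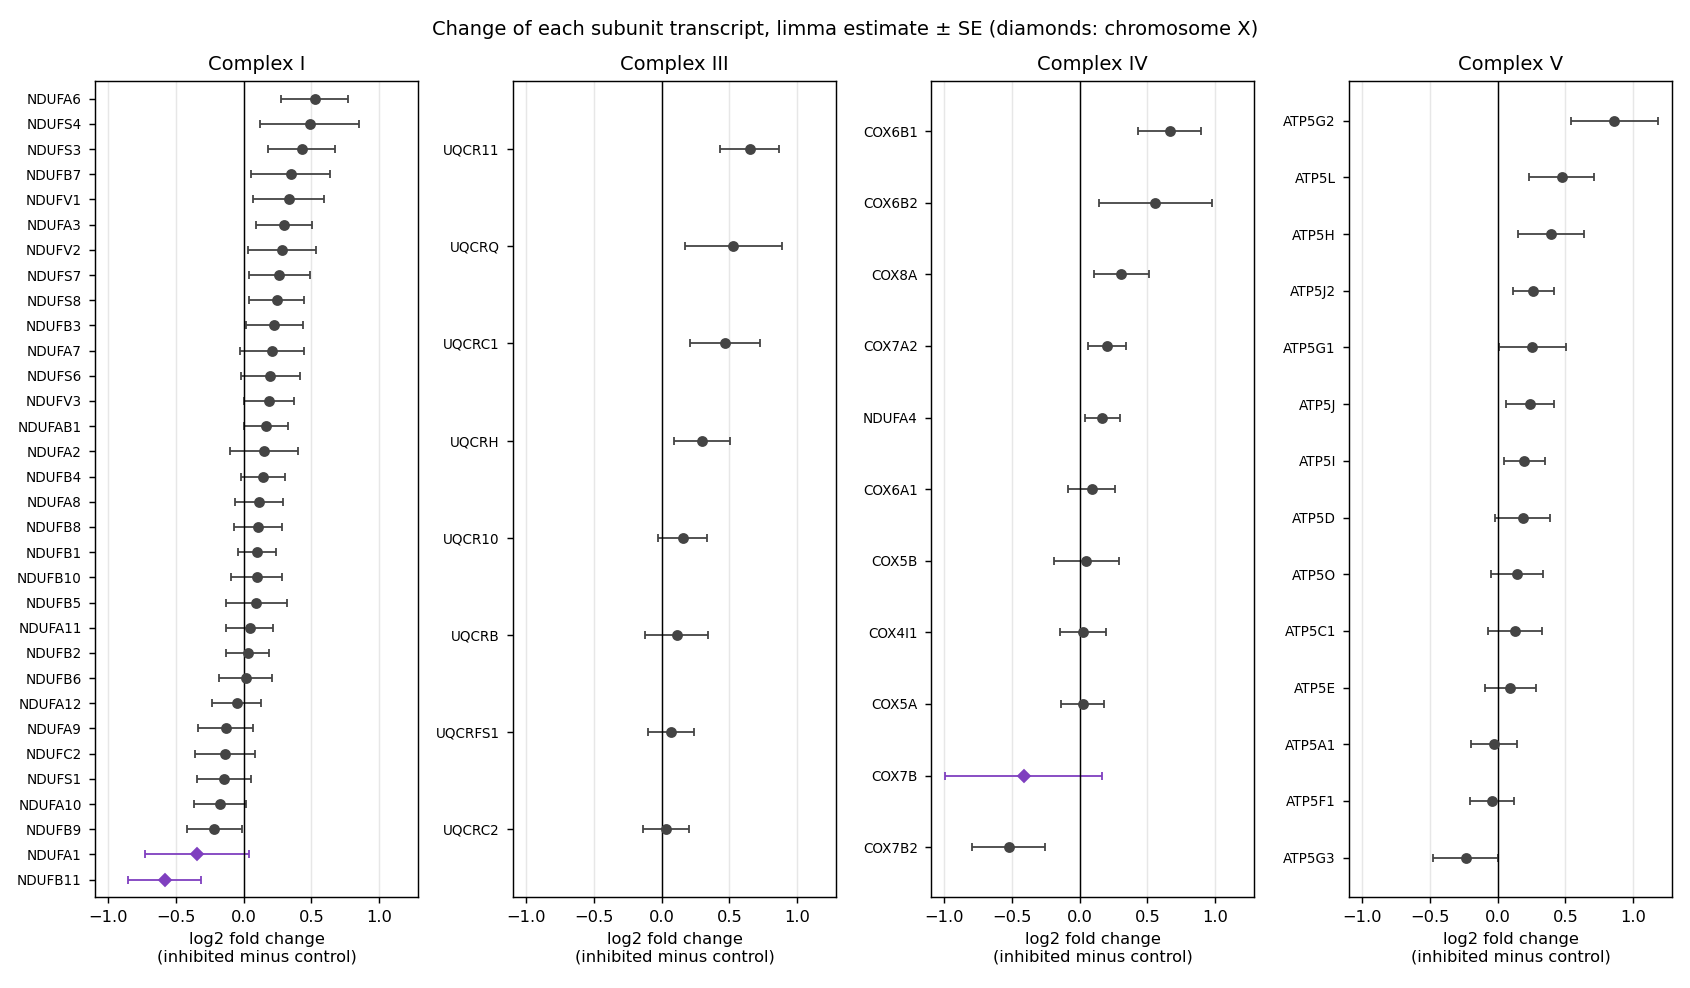
Limma log2 fold change, MAT2A-inhibited minus control, of each tested subunit gene (x axis, point ± SE), ordered within its complex (y axis). Of the 65 genes shown 52 lie above 0, ATP5G2 is the highest at 0.86, and the X-linked genes, drawn as purple diamonds, are at -0.58 to -0.34.

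The 3 X-linked members had log2 fold changes below 0. NDUFA1, an assembly-critical subunit of the complex I membrane arm (chromosome X, 4068880 to 4072048), had 3082, 1169.9 and 1265 FPKM in MAT2A-inhibited morulae and 1934, 1724 and 2797 FPKM in controls (-0.34 ± 0.38, limma adjusted p = 0.852). NDUFB11, of the same arm (90791401 to 90793658), had 922, 439.6 and 594 FPKM in MAT2A-inhibited morulae and 968, 853 and 984 FPKM in controls (-0.58 ± 0.27, adjusted p = 0.750). In both genes MAT2A-inhibited morulae 2 and 3, the embryos with Y-linked transcripts, were below all other libraries, and MAT2A-inhibited morula 1 was within the range of the controls or above it.

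COX7B, a small subunit of complex IV (79539858 to 79544663), had 3117, 2337 and 589 FPKM in MAT2A-inhibited morulae and 2442, 2661 and 1557 FPKM in controls (-0.41 ± 0.58, adjusted p = 0.878). MAT2A-inhibited morula 3 was below the other 5 libraries, and MAT2A-inhibited morula 2 was within the control range. Without the embryos with Y-linked transcripts, the log2 fold change was 0.55 for NDUFA1, 0.53 for COX7B and -0.017 for NDUFB11. That fit leaves 1 treated embryo, which is assumed to vary like the controls.

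The same order was found across chromosome X. Both embryos with Y-linked transcripts were below the other 4 libraries in 130 of 245 tested X-linked genes (53.1%), and in 5.73% of the 7074 genes on other chromosomes. Their median difference from the other libraries was -0.74 on the log2 scale for X-linked genes and 0.043 for the rest. The differences were -0.93 for NDUFA1, -0.86 for NDUFB11 and -1.01 for COX7B, and the 65 members elsewhere had a median of 0.24. For XIST, the RNA that coats an inactive X chromosome, MAT2A-inhibited morulae had 7.93, 0.164 and 0.127 FPKM, against 12.8, 61.3 and 7.49 FPKM in controls. Since both such embryos are MAT2A-inhibited, embryo sex and treatment cannot be told apart in these embryos, and 54 of the 65 members on other chromosomes were above 0.

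**Figure D5:**
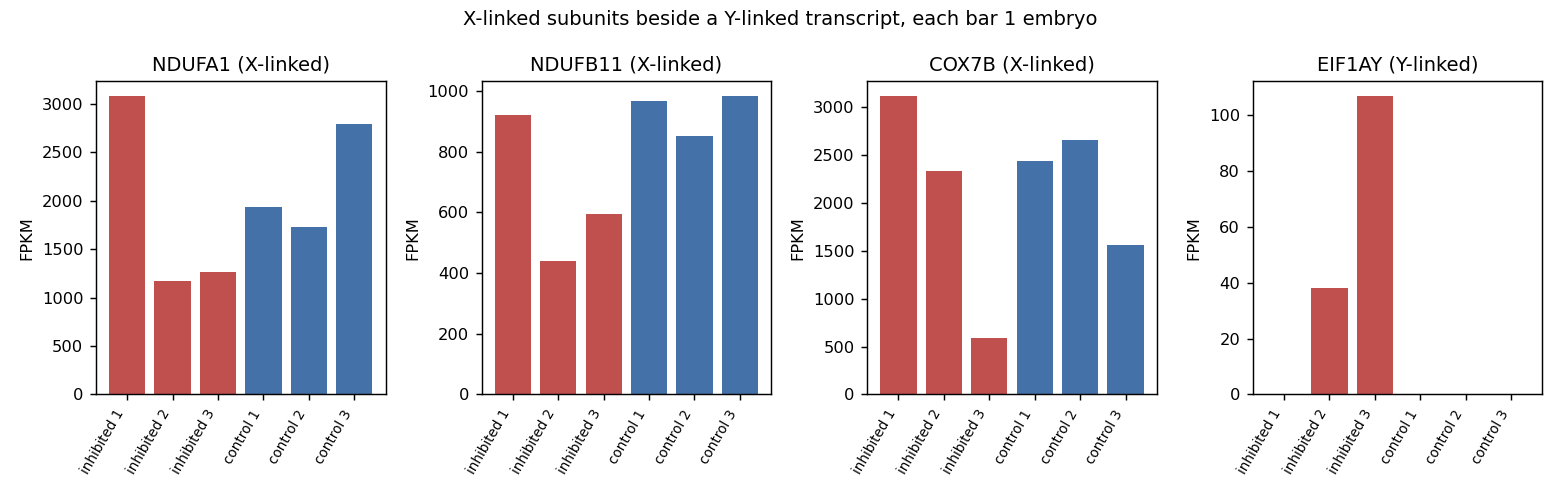
FPKM (y axis) of the X-linked subunit genes NDUFA1, NDUFB11 and COX7B and of the Y-linked EIF1AY in each embryo, MAT2A-inhibited in red on the left and control in blue on the right. The embryos with EIF1AY at 38.2 and 107 FPKM have the lowest NDUFA1 and NDUFB11, and the last of them also the lowest COX7B at 589 FPKM.

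Some members lie close together in the genome. ATP5D (45302252 to 45304424), NDUFS7 (45427304 to 45433438) and UQCR11 lie in this order on chromosome 7, with gaps of 122879 and 159334 bases. NDUFS7, which holds the last iron-sulfur cluster before ubiquinone, had 201, 163 and 195 FPKM in MAT2A-inhibited morulae and 198, 123 and 150.3 FPKM in controls, and overlapped between groups, unlike UQCR11. NDUFV1 and NDUFS8 lie 90504 bases apart on chromosome 29. NDUFS8 had 193, 228 and 287 FPKM in MAT2A-inhibited morulae and 195, 185 and 209.6 FPKM in controls.

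The 3 symbols set apart share the family names, are not counted as subunits of the 4 enzymes and were kept out of the sums. COX7A2L, which links complexes III and IV into supercomplexes, had 516, 688 and 381 FPKM in MAT2A-inhibited morulae and 416, 419 and 393 FPKM in controls. ATP5S, now named DMAC2L (chromosome 10, 43265126 to 43277199), was the one member with all treated values below all controls, at 22.2, 18.6 and 18.1 FPKM in MAT2A-inhibited morulae and 30.9, 22.9 and 30.1 FPKM in controls (-0.48 ± 0.24, limma adjusted p = 0.759). ATP5SL, now DMAC2 and known for a role in complex I assembly, had 11.2, 13.5 and 19.2 FPKM in MAT2A-inhibited morulae and 11.2, 6.26 and 13.6 FPKM in controls. The groups overlapped for COX7A2L and ATP5SL.

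A further 6 members shared a merged locus with a neighbour in at least 1 library and were not tested. ATP5B, the catalytic beta subunit of ATP synthase, had its own row at 1136 FPKM in MAT2A-inhibited morula 3 and at 1332 FPKM in control 3. In the others it was merged with MIR677, at 739 and 909.7 FPKM in MAT2A-inhibited morulae 1 and 2 and 721 and 533 FPKM in controls 1 and 2. Its own rows and merged rows were not compared. NDUFA5 had 1698 and 1611 FPKM in MAT2A-inhibited morulae 1 and 2 and 1817 and 1818 FPKM in controls 2 and 3. NDUFA13 had 413 and 443 FPKM in MAT2A-inhibited morulae 1 and 2 and 538, 349 and 607 FPKM in controls. NDUFC1 had 3444, 3570.1 and 4824 FPKM in MAT2A-inhibited morulae and 4130.1 and 5119.5 FPKM in controls 1 and 3. NDUFS5 had 981 and 965 FPKM in MAT2A-inhibited morulae 2 and 3 and 1118 and 1138 FPKM in controls 1 and 3.

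Genes of the pathway outside the families above were also tested. All 4 genes of complex II, which feeds electrons from succinate, had a log2 fold change below 0, with a median of -0.12 and 0 called. SDHA, its flavoprotein, had 99.1, 53.4 and 63.6 FPKM in MAT2A-inhibited morulae and 115, 107 and 56.0 FPKM in controls. SDHD, a membrane anchor, had 646, 770.0 and 446 FPKM in MAT2A-inhibited morulae and 512, 799 and 781 FPKM in controls. SDHB, the iron-sulfur subunit, was at 387 to 442 FPKM in MAT2A-inhibited morulae and 415 to 457 FPKM in controls. CYCS, cytochrome c itself, had 4218, 3965 and 4715 FPKM in MAT2A-inhibited morulae and 4786, 4652 and 6207 FPKM in controls (-0.27 ± 0.16, limma adjusted p = 0.782). Of ATP synthase parts outside the ATP5 names, USMG5 had 10078, 10911 and 8923 FPKM in MAT2A-inhibited morulae and 8662, 8549 and 8959 FPKM in controls. The inhibitor ATPIF1 ran from 1022 to 2582 FPKM in MAT2A-inhibited and from 1037 to 2647 FPKM in control morulae.

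Of the assembly factors of the 4 complexes 0 passed. A log2 fold change above 0 was found for 8 of 15 factors of complex I (median 0.011), 2 of 3 of complex III, 6 of 13 of complex IV (median -0.021) and 1 of 2 of complex V. ECSIT, of the complex I assembly machinery, had 9.38, 9.96 and 8.46 FPKM in MAT2A-inhibited morulae and 3.79, 5.28 and 7.37 FPKM in controls (0.70 ± 0.31, limma adjusted p = 0.746). ACAD9, its partner, had 10.5, 4.80 and 5.90 FPKM in MAT2A-inhibited morulae and 3.30, 2.86 and 4.58 FPKM in controls (0.77 ± 0.36, adjusted p = 0.750). These were the only 2 of 15 complex I factors (13.3%) with non-overlapping groups, against 13.4% of all genes tested.

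LYRM7, a chaperone of the Rieske protein, had 136, 173.5 and 469 FPKM in MAT2A-inhibited morulae and 60.4, 82.7 and 159.7 FPKM in controls (1.26 ± 0.52, unadjusted p = 0.0439, adjusted p = 0.746). Its groups overlapped through control 3. COA3, of early complex IV assembly, had 177, 118 and 106 FPKM in MAT2A-inhibited morulae and 219.7, 157 and 221 FPKM in controls (-0.59 ± 0.26, adjusted p = 0.746). The Rieske protein gene UQCRFS1 had a log2 fold change of 0.072.

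Of the other assembly factors, those with the smallest p had overlapping groups. NDUFAF6, of complex I assembly, had 11.8, 15.1 and 15.0 FPKM in MAT2A-inhibited morulae and 15.4, 10.6 and 11.3 FPKM in controls. For complex III, UQCC3 ran from 36.6 to 57.8 FPKM in MAT2A-inhibited and from 35.4 to 46.2 FPKM in control morulae, and BCS1L, which inserts the Rieske protein, from 17.1 to 30.4 FPKM in MAT2A-inhibited and from 22.9 to 26.8 FPKM in control morulae. COX10, which makes heme O for cytochrome c oxidase, had 5.47, 11.7 and 4.21 FPKM in MAT2A-inhibited morulae and 4.57, 6.55 and 2.08 FPKM in controls. COX16 ran from 414 to 482 FPKM in MAT2A-inhibited and from 324 to 476 FPKM in control morulae. For ATP synthase, ATPAF2 had 7.31, 11.2 and 7.82 FPKM in MAT2A-inhibited morulae and 6.78, 6.34 and 8.26 FPKM in controls, and TMEM70 ran from 77.0 to 118 FPKM in MAT2A-inhibited and from 60.6 to 139.7 FPKM in control morulae.

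Regulators of nuclear respiratory genes and of mitochondrial DNA gave mixed values. Of 9 tested 4 were above 0, with a median of -0.049 and 0 called. POLRMT, the mitochondrial RNA polymerase, had 6.28, 5.70 and 5.17 FPKM in MAT2A-inhibited morulae and 15.6, 19.5 and 15.8 FPKM in controls (-1.41 ± 0.26, limma adjusted p = 0.338). TFAM, which packs mitochondrial DNA and starts its transcription, had 50.7, 37.3 and 35.4 FPKM in MAT2A-inhibited morulae and 81.7, 77.2 and 57.0 FPKM in controls (-0.79 ± 0.25, adjusted p = 0.701). YY1, a factor with sites in many respiratory gene promoters, had 123, 126 and 177 FPKM in MAT2A-inhibited morulae and 99.0, 86.6 and 103 FPKM in controls (0.54 ± 0.22, adjusted p = 0.746). PPRC1, a coactivator of these factors, had 4.57, 4.26 and 4.05 FPKM in MAT2A-inhibited morulae and 3.45, 3.11 and 3.96 FPKM in controls, and was named after its values were seen. These 4 of 9 regulators (44.4%) had non-overlapping groups, 2 higher and 2 lower in MAT2A-inhibited morulae, against 13.4% of all genes tested. None of them passed over all genes.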

How the data were processed

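TopHat2 2.0.14 and Cufflinks 2.2.1 with the build bosTau8 are named in the submitters' processing notes, and the gene annotation is not given in the sources used here. The authors deposited 1 gene table per library with FPKM values, per the file headers. No scaling between libraries is recorded. Rows of 1 symbol were summed. Symbols with a merged locus, a status other than OK or no row in some library were left out of the fit. The test, limma 3.58.1 (R 4.3.3), used log2 of FPKM with a pseudocount of 1 and allowed the variance to follow the mean. It covered genes that reached 1 FPKM in 3 or more libraries and was two-sided, adjusted by Benjamini-Hochberg over all genes tested at a threshold of 0.05. The test was tried on simulated libraries.

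The members, lists and naming rule were chosen with earlier results of these data known. Named were the 4 members per complex with the highest mean and the 4 with the smallest p, non-overlapping, X-linked and isoform genes, members with a 0, and the 3 genes of smallest p in each other list; others were named after their values were seen. Depth came from the deposited confidence bounds at short loci without a gene name (100 to 300 bases), where 99.7% to 99.9% of values were whole fragments within 0.05. The SD of a sum is the spread between embryos. The SE of a log2 fold change is that of limma, in which the variance of a gene is drawn toward the trend over all genes tested. Neither holds a counting interval. Positions are 1-based, at the locus found in the largest number of libraries, and ties were settled by the order of the locus names. For ATP5G2 no locus was found in more than 1 library. Alternatives covered scaling, pseudocount, filters, rows per symbol, the trend, a replicate block and left-out libraries. A planned promoter motif search was not run, as no promoter sequence was used here. Newer names come from RefSeq, which matched 79 members. No libraries held identical values. The values of 1 member left out of the fit are not reported here.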

Additional observations from a re-analysis of the deposited data

How the results depend on the processing

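No member was called under any of the 19 alternatives that refit the test. Calls over all genes numbered 3. They were 1 with no filter on low values, 1 at a mean of at least 5 FPKM, 1 with the replicate number as a block, and 0 when genes listed at 0, or both embryos expressing Y-linked genes, were left out. With 1 library left out they ran from 0 (without any one of the MAT2A-inhibited embryos) to 8 (without control 3). Whether replicate numbers pair the embryos cannot be decided from so few embryos per group. Same-numbered embryos correlated at 0.0456, 0.103 and 0.191, and the other pairs at -0.212 to 0.102. MAT2A-inhibited morulae 2 and 3 correlated best with their own number, while morula 1 did so with control 2 (0.102). With the replicate block 54 of 68 members were above 0.

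The count of members above 0 ran from 37 (without the libraries with Y-linked transcripts) to 57, and their median from 0.046 to 0.23. Without those libraries the log2 fold change turned to -0.0014 for NDUFA3, 0.53 for COX7B, 0.55 for NDUFA1 and 0.19 for ATP5G3. With 1 library left out COX7B ran from -0.88 to 0.32 (0.32 without MAT2A-inhibited replicate 3), and the log2 ratio of the complex I sum was -0.0040 without Control replicate 2. The cause was not tested. Fits without X-linked and Y-linked genes and without Control replicate 2 after rescaling were added after seeing the data.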
